A study of Arabidopsis thaliana with 24 samples.

Results

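Starch is made in plastids from ADP-glucose, and 10 enzymes of its synthesis and breakdown were followed in developing seeds of Arabidopsis thaliana. They were chosen by locus, without a rule on their levels, as the rows APS1 (AT5G48300_at), APL1 (AT5G19220_at), GBSS1 (AT1G32900_at), SS1 (AT5G24300_at), SS2 (AT3G01180_at), SBE2.1 (AT2G36390_at), SBE2.2 (AT5G03650_at), SEX1 (AT1G10760_at), BAM3 (AT4G17090_at) and ISA3 (AT4G09020_at). Earlier results of these data were known when the list was made, so counts of members beside the share of all loci are a description. All 10 were among the 27827 loci of the deposited table, each with 1 probe set named by the locus, and none shared its values with another locus. The seeds came from Col-0 plants, for which the labels name neither a mutation nor a treatment, and were taken at 12, 15, 18 and 20 days after pollination (DAP). RNA was taken at each stage from whole extracts (total RNA) and from polysomes, which are messengers with several ribosomes on them (polysomal RNA), and was hybridised to one-colour arrays in 3 replicates, giving 24 arrays in 8 groups. A replicate was a bulk of 8 plants grown in a blocked planting. Levels are the authors' log2 values, and a difference of 1 on that scale is a doubling of the signal; levels of different probe sets are not comparable with each other.

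Starch synthesis begins with ADP-glucose pyrophosphorylase, an enzyme of small and large subunits, and goes on with synthases that lengthen glucan chains and branching enzymes that make branches in them. Breakdown begins when a dikinase phosphorylates the granule surface, after which beta-amylases and debranching enzymes release maltose and glucans. In Arabidopsis seeds starch is a passing reserve, which builds up early in seed filling and is gone from the ripe seed, where oil and protein are the stores.

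The 12 DAP arrays, 6 in number, were unlike the other 18. Their levels had an SD over loci of 1.39 to 1.71 log2 units, against 2.13 to 2.43 later, and the median SD between replicates was 0.532 to 0.567 against 0.175 to 0.301. The tissue is labelled as seeds, and the mean over 8 storage genes of the embryo lay between 11.3 and 12.2 on all arrays. The mean over 12 seed coat markers was 6.39 to 6.66 in total RNA at 12 DAP and 3.51 to 3.66 at 15 DAP, and that over 6 green tissue markers was 8.21 to 8.45 and 3.84 to 4.07. On polysomes the seed coat mean was 5.73 to 6.05 and then 3.07 to 3.15, and the green tissue mean 7.91 to 8.63 and then 3.24 to 4.03. Between those stages 11 of 12 seed coat, 6 of 6 green tissue, 4 of 7 endosperm and 3 of 5 silique markers fell in total RNA. No embryo marker fell, while 2 of 8 embryo and 1 of 7 endosperm markers rose, where 19.4% of all loci fell and 20.5% rose. In polysomal RNA 10 seed coat, 6 green tissue, 6 endosperm and 5 silique markers fell. There 1 embryo and 1 endosperm marker rose, where 39.4% of loci fell and 29.4% rose. From 15 to 20 DAP 4 seed coat, 0 green tissue, 1 endosperm, 1 silique and 3 embryo markers fell in total RNA, where 7.7% of loci fell, and 2, 0, 1, 1 and 3 in polysomal RNA, where 5.4% did. In polysomal RNA 1 green tissue marker rose at this step, where 7.18% of loci did. The part of these tissues in the changes of the starch enzymes was not tested. In RNA of whole seeds fewer cells of a type and less RNA per cell cannot be told apart.

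**Figure D1:**
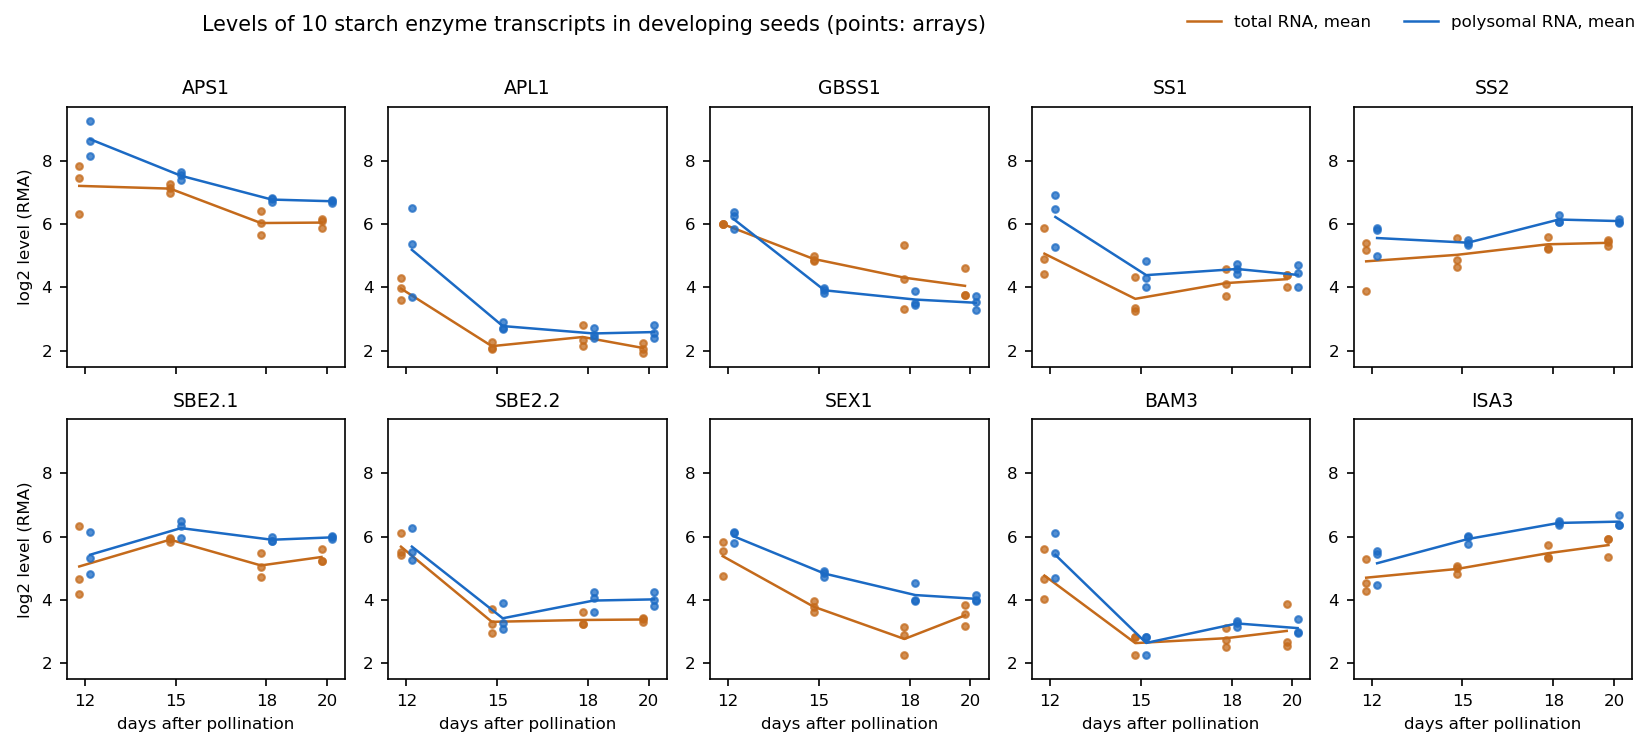
Log2 levels (RMA) of the 10 enzymes against days after pollination, with a point per array and lines through the means of 3 arrays in total (orange) and polysomal RNA (blue). APL1, SBE2.2 and BAM3 fell between 12 and 15 DAP in both fractions and had no called change from 15 to 20 DAP. The signal of APL1 was low in total RNA from 15 DAP on, with means above those of 13.2% to 22.1% of loci.

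Between 12 and 15 DAP most of the starch enzymes were called lower and none higher, though some calls depended on the scaling and model. In total RNA 6 of 10 fell (APL1, GBSS1, SS1, SBE2.2, SEX1 and BAM3), where 19.4% of all loci were called lower. The same 6 and APS1 fell in polysomal RNA, 7 of 10 against 39.4% of all loci. SS2, SBE2.1 and ISA3 passed the test in neither fraction, and no member rose, where 20.5% of loci in total and 29.4% in polysomal RNA did. The median difference over the 10 was -1.26 in total and -1.51 in polysomal RNA, beside -0.318 and -0.514 over all loci, and relative to the median locus it was -0.946 and -0.993. A gene was called when its p value from limma's moderated test, adjusted over all loci after Benjamini and Hochberg, was under 0.05, and differences are given ± SE with 3 arrays per group. Both fits at this step used the 6 compared arrays alone. On polysomes median centring called SBE2.1 and ISA3 higher (adjusted p = 0.0133 and 0.0119). One model of all 24 arrays did so too (adjusted p = 0.0497 and 0.0203). In total RNA GBSS1 and SS1 lost their calls with median centring, and APL1, SS1 and BAM3 under cyclic loess, which called APS1 lower. Polysomal calls were lost for APS1 and SEX1 with median centring and for APL1 under cyclic loess, which called SS2 lower.

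**Figure D2:**
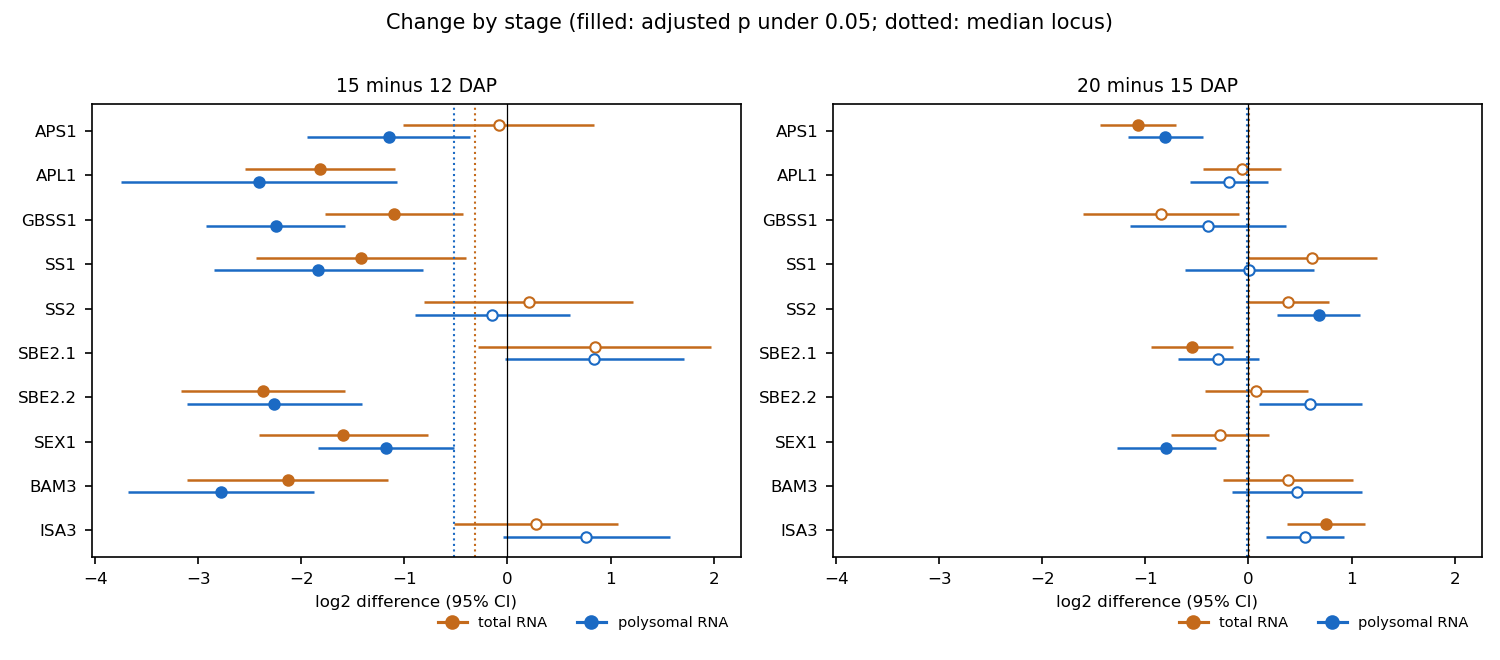
Log2 difference between stages with its 95% confidence interval for each enzyme, 15 minus 12 DAP on the left and 20 minus 15 DAP on the right, in total (orange) and polysomal RNA (blue). Filled points passed the adjusted threshold of 0.05, dotted lines mark the median locus, and SBE2.2 and BAM3 lay beyond -2 in both fractions on the left.

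ADP-glucose pyrophosphorylase was represented by APS1, its catalytic small subunit, and APL1, a large subunit. In total RNA the APS1 arrays read 7.83, 7.46 and 6.33 at 12 DAP, 7.25, 7.14 and 6.97 at 15 DAP, 6.42, 6.04 and 5.65 at 18 DAP and 6.17, 6.09 and 5.89 at 20 DAP. The 12 and 15 DAP arrays overlapped, and all 3 arrays of 18 DAP and of 20 DAP lay below all 3 of 15 DAP. In polysomal RNA the values were 8.15, 9.26 and 8.64 at 12 DAP, 7.65, 7.55 and 7.38 at 15 DAP, 6.81, 6.71 and 6.81 at 18 DAP and 6.77, 6.66 and 6.73 at 20 DAP. Here every array of 12 DAP was above every array of 15 DAP, which in turn were above all later ones. From 12 to 15 DAP APS1 fell by 1.15 ± 0.35 in polysomal RNA (adjusted p = 0.0162), and its difference in total RNA was -0.086 ± 0.42 (adjusted p = 0.879, 95% interval -1.01 to 0.84). The polysomal call was lost without polysomal 15 DAP replicate 2 or 3, at -1.17 to -1.08 (adjusted p = 0.0546 to 0.0679), and with each array centred on its median, at -0.62 (adjusted p = 0.157). Other scalings made it larger, at -2.39 under quantile normalization and -3.22 under cyclic loess (adjusted p = 0.00417 and 2.17e-04). Cyclic loess put the total RNA difference at -1.67 (adjusted p = 0.0170). APS1 went on to fall from 15 to 20 DAP in both fractions, by 1.07 ± 0.17 in total RNA (adjusted p = 5.11e-04) and by 0.81 ± 0.17 in polysomal RNA (adjusted p = 0.00550). With all 24 arrays in one model the polysomal fall had an adjusted p of 0.214.

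APL1 read 3.98, 4.31 and 3.6 in total RNA at 12 DAP and 2.1, 2.05 and 2.29 at 15 DAP, and the 6 later arrays lay between 1.94 and 2.82. On polysomes it read 5.36, 6.52 and 3.69 at 12 DAP and 2.92, 2.70 and 2.72 at 15 DAP, and between 2.40 and 2.80 later. All arrays of 12 DAP were above all of 15 DAP in both fractions, and the polysomal 12 DAP replicates were spread over an SD of 1.42. APL1 fell by 1.82 ± 0.33 in total RNA (adjusted p = 0.00205) and by 2.41 ± 0.60 in polysomal RNA (adjusted p = 0.00624), and no change was called after 15 DAP. Cyclic loess moved these to -0.96 (adjusted p = 0.0739) and -1.15 (adjusted p = 0.215), and quantile normalization the polysomal one to -2.43 (adjusted p = 0.169). From 15 DAP on the mean of APL1 was above that of 13.2% to 22.1% of loci in total RNA and 35.5% to 38.4% in polysomal RNA. At so low a signal, the lack of later change, the size of the fall and small differences between fractions are hard to read.

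Among the synthases, GBSS1 is the granule-bound enzyme that makes amylose, while SS1 and SS2 are soluble and lengthen the chains of amylopectin. GBSS1 in total RNA read 6.0, 6.0 and 6.01 at 12 DAP, 4.83, 4.87 and 5.01 at 15 DAP, 3.32, 4.26 and 5.35 at 18 DAP and 3.77, 3.77 and 4.62 at 20 DAP. The 12 DAP arrays were nearly identical and above all of 15 DAP, those of 15 DAP were above all of 20 DAP, and the 18 DAP arrays were spread over the whole span between and beyond them. On polysomes GBSS1 read 5.86, 6.37 and 6.25 at 12 DAP, 3.81, 3.99 and 3.94 at 15 DAP, 3.5, 3.90 and 3.46 at 18 DAP and 3.73, 3.53 and 3.29 at 20 DAP. The polysomal arrays of 12 DAP were above all later ones, and those of 15 DAP overlapped with 18 DAP and were above all of 20 DAP. Between 12 and 15 DAP GBSS1 fell by 2.25 ± 0.30 in polysomal RNA (adjusted p = 2.83e-04) and by 1.10 ± 0.30 in total RNA (adjusted p = 0.0157). The total RNA call was lost without any 1 of the 3 total 15 DAP replicates, at -1.15 to -1.06 (adjusted p = 0.0501 to 0.0684), with array weights (adjusted p = 0.123), and with median centring, at -0.81 (adjusted p = 0.0600). For this fall quantile normalization gave -1.69 (adjusted p = 0.00499). Its total RNA difference from 15 to 20 DAP, -0.85 ± 0.36, missed the threshold (adjusted p = 0.111) and passed it without total 18 DAP replicate 1 or 3 (adjusted p = 0.0250 to 0.0345).

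SS1 read 4.43, 4.89 and 5.88 at 12 DAP and 3.26, 3.34 and 4.33 at 15 DAP in total RNA, and 5.26, 6.93 and 6.48 and 4.84, 4.31 and 4.02 on polysomes, each at 12 and then 15 DAP. The arrays of 18 and 20 DAP lay between 3.72 and 4.59 in total and between 4.03 and 4.75 in polysomal RNA. The 12 DAP arrays were above those of 15 DAP without overlap in both fractions. SS1 fell by 1.43 ± 0.46 in total RNA (adjusted p = 0.0318) and by 1.84 ± 0.45 in polysomal RNA (adjusted p = 0.00602), the latter at -2.84 under quantile normalization (adjusted p = 0.0119). The total RNA call was lost without total 12 DAP replicate 2 or 3 or total 15 DAP replicate 1 or 2, at -1.51 to -1.02 (adjusted p = 0.0560 to 0.115), and under quantile normalization, median centring and cyclic loess (adjusted p = 0.0692 to 0.0874). The SS1 difference from 15 to 20 DAP was 0.62 ± 0.29 in total RNA (adjusted p = 0.162), with an adjusted p of 0.0279 at 0.96 without total 15 DAP replicate 3, and 0.0069 ± 0.29 in polysomal RNA (adjusted p = 0.995).

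SS2 read 3.89, 5.39 and 5.20 at 12 DAP and 4.88, 4.66 and 5.55 at 15 DAP in total RNA, with overlapping arrays. On polysomes its values were 5.88, 5.80 and 5.0 at 12 DAP, 5.50, 5.34 and 5.41 at 15 DAP, 6.07, 6.29 and 6.07 at 18 DAP and 6.04, 6.08 and 6.17 at 20 DAP, so that the 15 DAP arrays were below all of 18 and 20 DAP. From 12 to 15 DAP the differences were 0.20 ± 0.45 in total (95% interval -0.81 to 1.22) and -0.15 ± 0.34 in polysomal RNA (95% interval -0.90 to 0.61), and the scaling decided their sign, with -0.48 in total RNA under cyclic loess and 0.39 in polysomal RNA under median centring. Cyclic loess called the polysomal difference lower, at -1.37 (adjusted p = 0.0179). SS2 then rose by 0.68 ± 0.19 on polysomes from 15 to 20 DAP (adjusted p = 0.0263), while the total RNA difference of 0.38 ± 0.19 was not called (adjusted p = 0.187). The polysomal rise lost its call without any 1 of the 6 polysomal arrays of 15 and 20 DAP, at 0.64 to 0.72 (adjusted p = 0.0505 to 0.0881), with all 24 arrays in one model and under the 3 other scalings (adjusted p = 0.0681 to 0.360). The total RNA difference gained a call without total 15 DAP replicate 3, at 0.64 (adjusted p = 0.0138).

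SBE2.1 and SBE2.2 encode branching enzymes of the same class, and their levels moved apart between 12 and 15 DAP. SBE2.2 read 5.51, 6.13 and 5.41 at 12 DAP, 2.96, 3.71 and 3.26 at 15 DAP, 3.23, 3.62 and 3.25 at 18 DAP and 3.42, 3.41 and 3.32 at 20 DAP in total RNA. On polysomes SBE2.2 read 6.28, 5.50 and 5.27 at 12 DAP, 3.90, 3.08 and 3.28 at 15 DAP, 4.26, 4.05 and 3.62 at 18 DAP and 3.82, 3.99 and 4.24 at 20 DAP. In both fractions all 3 arrays of 12 DAP were above every later array. SBE2.2 fell by 2.37 ± 0.36 in total RNA, a 5.18-fold drop (adjusted p = 8.14e-04), and by 2.26 ± 0.38, or 4.80-fold, in polysomal RNA (adjusted p = 8.78e-04). SBE2.1 read 4.19, 4.66 and 6.32 at 12 DAP, 5.93, 5.96 and 5.82 at 15 DAP, 4.74, 5.49 and 5.04 at 18 DAP and 5.60, 5.24 and 5.23 at 20 DAP in total RNA. Its polysomal values were 5.31, 6.14 and 4.83 at 12 DAP, 6.49, 5.97 and 6.34 at 15 DAP, 5.85, 5.87 and 5.99 at 18 DAP and 6.01, 6.0 and 5.92 at 20 DAP. Total 12 DAP replicate 3 was high beside the other 2, and the 12 and 15 DAP arrays overlapped in both fractions. The SBE2.1 difference was 0.85 ± 0.51 in total RNA (adjusted p = 0.201) and 0.84 ± 0.39 in polysomal RNA (adjusted p = 0.0763). It passed the test at 1.48 without total 12 DAP replicate 3 (adjusted p = 0.00898) and, on polysomes, at 1.2 without polysomal 12 DAP replicate 2 (adjusted p = 0.0117), with all 24 arrays in one model (adjusted p = 0.0497) and with median centring (adjusted p = 0.0133). Quantile normalization and cyclic loess turned the polysomal difference to -0.31 and -0.51.

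After 15 DAP SBE2.1 fell in total RNA, by 0.55 ± 0.19 at 20 DAP (adjusted p = 0.0498), and its difference in polysomal RNA was -0.29 ± 0.19 (adjusted p = 0.385). The total RNA call was at the threshold and was lost in 13 of 18 fits that each left out 1 array, at -0.59 to -0.48 (adjusted p up to 0.138). Those arrays were all 3 of total 15 DAP, of polysomal 18 DAP and of polysomal 20 DAP, replicate 3 of polysomal 15 DAP and of total 18 DAP, and replicates 2 and 3 of total 20 DAP. It was lost as well with all 24 arrays in one model, with array weights and with median centring (adjusted p = 0.0909 to 0.502). SBE2.2 was not called at this step, with 0.073 ± 0.24 in total and 0.60 ± 0.24 in polysomal RNA (adjusted p = 0.870 and 0.119), and the latter passed the test at 0.84 without polysomal 15 DAP replicate 1 (adjusted p = 0.0351).

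Within each array the level of SBE2.1 minus that of SBE2.2, and of SS2 minus SS1, removes any shift shared by the 2 genes on that array. The sign of such a difference cannot be read, but its change between stages can be followed. The narrower range of levels at 12 DAP, an SD over loci of 1.39 to 1.71 against 2.13 to 2.43, is not removed. The size of a change also moved with the scaling. SBE2.1 minus SBE2.2 was -1.32, -1.47 and 0.92 on the total RNA arrays of 12 DAP and 2.97, 2.25 and 2.57 on those of 15 DAP. In polysomal RNA it was -0.97, 0.64 and -0.44, then 2.59, 2.89 and 3.06. The arrays of the 2 stages did not overlap in either fraction, and the mean rose by 3.22 in total and 3.10 in polysomal RNA. SS2 minus SS1 was -0.54, 0.50 and -0.68 at 12 DAP and 1.62, 1.32 and 1.22 at 15 DAP in total RNA. On polysomes it was 0.62, -1.13 and -1.48 at 12 DAP and 0.65, 1.02 and 1.40 at 15 DAP. This pair changed by 1.63 in total and 1.69 in polysomal RNA. In an exact permutation test over the 12 arrays, with stages exchanged within fractions, the mean change over both fractions gave a two-sided p of 0.005 for either pair and 0.005 adjusted over the 2 pairs, the smallest that 400 arrangements can give. The pairs were tested after their values had been seen. For both pairs the arrays of the 2 stages do not overlap in either fraction, so no other p was possible. This p is therefore a description of that separation and no further support. Under cyclic loess the changes were smaller, 1.94 and 1.39 for the branching enzymes and 0.86 and 0.71 for the synthases in total and polysomal RNA.

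**Figure D3:**
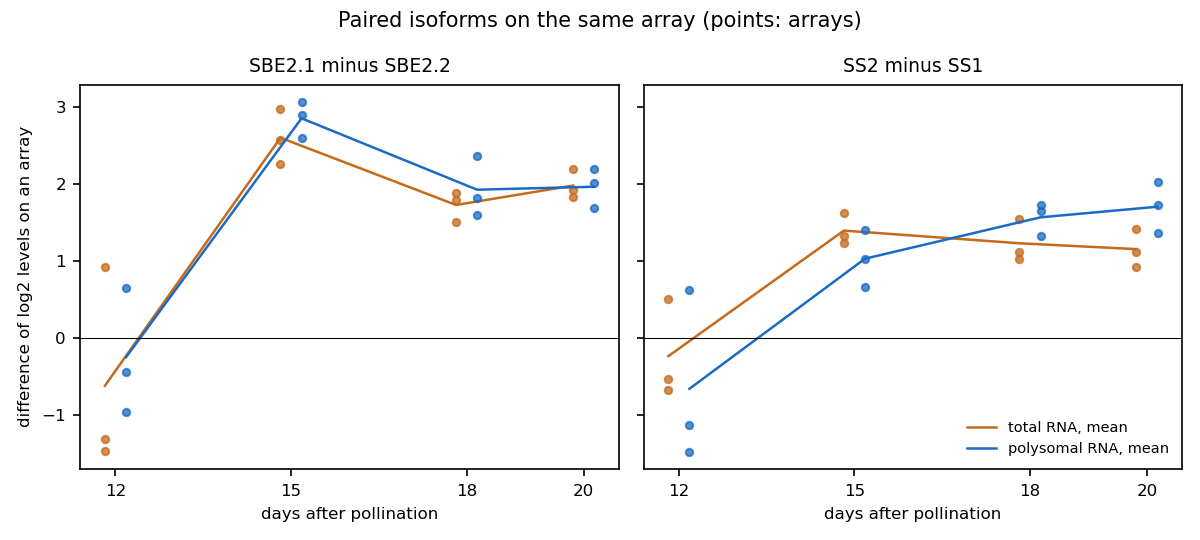
Difference of log2 levels on the same array, SBE2.1 minus SBE2.2 on the left and SS2 minus SS1 on the right, against days after pollination. Points are arrays and lines join the means of 3 arrays in total (orange) and polysomal RNA (blue), and the 15 DAP points of every series lie above its 12 DAP points.

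Of the breakdown enzymes, SEX1 is the glucan, water dikinase that phosphorylates starch and so opens the granule to the amylases. SEX1 in total RNA read 5.84, 5.55 and 4.75 at 12 DAP, 3.96, 3.78 and 3.62 at 15 DAP, 2.27, 2.88 and 3.15 at 18 DAP and 3.83, 3.16 and 3.54 at 20 DAP. Its 18 DAP arrays were below all of 15 DAP and below all of 20 DAP, and it was the one member whose total RNA arrays separated upwards from 18 to 20 DAP. Of all loci, 5.9% did so. On polysomes SEX1 read 6.11, 5.79 and 6.13 at 12 DAP, 4.91, 4.87 and 4.72 at 15 DAP, 3.95, 4.52 and 3.99 at 18 DAP and 4.17, 3.98 and 3.96 at 20 DAP. There each array of 12 DAP was above all of 15 DAP, and those were above all of 18 and 20 DAP. From 12 to 15 DAP SEX1 fell by 1.59 ± 0.37 in total RNA (adjusted p = 0.00726) and by 1.18 ± 0.29 on polysomes (adjusted p = 0.00641), the latter at -0.64 with median centring (adjusted p = 0.0859) and -2.38 under quantile normalization (adjusted p = 0.00425). Later, at 20 against 15 DAP, it fell by 0.80 ± 0.23 in polysomal RNA (adjusted p = 0.0283), and the total RNA difference was -0.28 ± 0.23 (adjusted p = 0.444). The polysomal call was lost without any 1 of the 6 polysomal arrays of 15 and 20 DAP, at -0.86 to -0.76 (adjusted p = 0.0552 to 0.0884), and with all 24 arrays in one model (adjusted p = 0.157).

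BAM3 is a plastid beta-amylase that releases maltose from starch. It read 4.02, 4.67 and 5.62 at 12 DAP and 2.82, 2.84 and 2.25 at 15 DAP in total RNA, and 6.10, 5.47 and 4.70 and 2.84, 2.84 and 2.24 on polysomes. The 18 later arrays lay between 2.24 and 3.86, and all 6 arrays of 12 DAP were above every one of them. BAM3 fell by 2.13 ± 0.44 in total RNA, 4.38-fold (adjusted p = 0.00396), and by 2.78 ± 0.40 in polysomal RNA, 6.87-fold, the largest fall among the 10 in the values as deposited (adjusted p = 4.29e-04). With cyclic loess the total RNA value was -1.30 (adjusted p = 0.0629) and the polysomal one -1.74 (adjusted p = 0.0140). Its differences from 15 to 20 DAP, 0.38 ± 0.30 and 0.47 ± 0.30, were not called (adjusted p = 0.417 and 0.384). At 15 DAP the mean of BAM3 was above that of 24.7% of loci in total RNA and 35.2% in polysomal RNA. The size of its fall is thus read against a low signal.

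ISA3 is a debranching enzyme that acts on starch during its breakdown, and it was the one member called higher in total RNA at 20 against 15 DAP. In total RNA it read 5.30, 4.28 and 4.52 at 12 DAP, 5.09, 4.83 and 5.02 at 15 DAP, 5.75, 5.34 and 5.34 at 18 DAP and 5.92, 5.35 and 5.93 at 20 DAP. On polysomes it read 5.56, 4.48 and 5.44 at 12 DAP, 6.0, 5.78 and 5.99 at 15 DAP, 6.44, 6.50 and 6.36 at 18 DAP and 6.36, 6.69 and 6.37 at 20 DAP. The polysomal arrays of 15 DAP were above those of 12 DAP and below those of 18 and 20 DAP, whereas in total RNA the 12 and 15 DAP arrays overlapped and the 20 DAP arrays were above all of 15 DAP. ISA3 rose by 0.75 ± 0.18 from 15 to 20 DAP in total RNA (adjusted p = 0.00715), a call lost with all 24 arrays in one model and under cyclic loess, at 0.51 (adjusted p = 0.143 and 0.0595). The polysomal difference of 0.55 ± 0.18 narrowly missed the threshold (adjusted p = 0.0533), and passed it without total 18 DAP replicate 1 or 3, without total 20 DAP replicate 2 (adjusted p = 0.0305 to 0.0494) and with only the 20870 brighter loci kept (adjusted p = 0.0359). From 12 to 15 DAP the differences were 0.28 ± 0.36 in total and 0.77 ± 0.36 in polysomal RNA (adjusted p = 0.550 and 0.0816). The polysomal one was called without polysomal 12 DAP replicate 1, at 0.97 (adjusted p = 0.0408), with all 24 arrays in one model and with median centring (adjusted p = 0.0203 and 0.0119), and its sign turned under quantile normalization, at -0.23, and cyclic loess, at -0.57. Cyclic loess also turned the total RNA value, to -0.51.

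Fewer of the 10 were called from 15 to 20 DAP than from 12 to 15 DAP, as was so of all loci. In total RNA APS1 and SBE2.1 fell, 2 of 10 where 7.7% of loci were called lower, and ISA3 rose, 1 of 10 where 11.5% were called higher. In polysomal RNA APS1 and SEX1 fell, against 5.4% of loci, and SS2 rose, against 7.18%. APS1 was the one called in both fractions. The median over the 10 was 0.0071 in total and -0.091 in polysomal RNA, and that over all loci was 0.00292 and -0.0145. This comparison shares the 15 DAP arrays with the one before it, so a high or low array of 15 DAP enters both with opposite signs. It was fitted on the 18 arrays of 15 to 20 DAP with 1 spread per locus, so the SE of a locus is the same in both fractions. The median SD between replicates was 0.258 to 0.301 in the total RNA groups and 0.175 to 0.207 in the polysomal ones. For a typical locus this SE is therefore somewhat small for total RNA and large for polysomal RNA. In single steps, from 15 to 18 DAP the arrays of APS1, SBE2.1 and SEX1 separated downwards and those of ISA3 upwards in total RNA, where 11.5% and 12.7% of loci did. On polysomes APS1 and SEX1 separated downwards and SS2, BAM3 and ISA3 upwards, where 16.8% and 19.1% did. From 18 to 20 DAP no polysomal member separated without overlap, where 5.71% of loci separated upwards and 5.88% downwards.

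Polysomal levels were set against total levels at the same stage, which asks which transcripts are more or less represented among those on several ribosomes. Over 15, 18 and 20 DAP, 8 of the 10 were higher in polysomal RNA, where 29.7% of loci were, and GBSS1 was lower, where 23% were. The largest was SEX1, at 0.98 ± 0.13 (adjusted p = 2.08e-05), followed by ISA3 at 0.88 ± 0.10 (adjusted p = 6.46e-06). SS2, APS1 and SBE2.1 stood at 0.62 ± 0.11, 0.61 ± 0.10 and 0.60 ± 0.11, and SBE2.2, SS1 and APL1 at 0.45 ± 0.14, 0.44 ± 0.17 and 0.42 ± 0.10, with adjusted p of at most 0.0382. GBSS1 was lower, at -0.74 ± 0.21 (adjusted p = 0.00686). BAM3, at 0.19 ± 0.17, was not called (adjusted p = 0.380, 95% interval -0.18 to 0.55), though it was called without total 20 DAP replicate 1, at 0.33 (adjusted p = 0.0493), and under quantile normalization, at 0.49 (adjusted p = 0.0312). The median over the 10 was 0.53, beside 0.0506 over all loci. On normalized arrays such a ratio is relative to the other transcripts of the array and is no share of a gene's transcripts.

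The call of SS1 was lost in 11 of 18 fits that left out 1 array, at 0.37 to 0.46 (adjusted p up to 0.0821): replicates 1 and 2 of polysomal and of total 15 DAP, replicates 2 and 3 of polysomal 18, total 18 and polysomal 20 DAP, and replicate 3 of total 20 DAP. Quantile normalization gave SS1 0.42 (adjusted p = 0.0691), and cyclic loess gave 0.24 for SS1, 0.25 for SS2 and 0.22 for SBE2.1 (adjusted p = 0.273, 0.0889 and 0.116). Calls that were kept under quantile normalization and cyclic loess, in that order, moved for APS1 to 0.31 and 0.32, for ISA3 to 0.54 and 0.51 and for APL1 to 0.73 and 0.69. Under quantile normalization SS2 was at 0.30 and SBE2.1 at 0.25 (adjusted p = 0.0366 and 0.0466). APL1 missed the threshold with all 24 arrays in one model (adjusted p = 0.181), as SS1 did (adjusted p = 0.139). Stage by stage, the polysomal arrays were above the total RNA arrays without overlap for 5 of 10 at 15 DAP, 7 at 18 DAP and 7 at 20 DAP, where 25.9%, 24.9% and 21.3% of loci were. APS1, SBE2.1, SEX1 and ISA3 were so at all 3 stages. GBSS1 was below at 15 DAP, with 3.81, 3.99 and 3.94 against 4.83, 4.87 and 5.01, and at 20 DAP, and overlapped at 18 DAP, where 18.7% of loci at 15 DAP and 16.7% at 20 DAP were below.

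**Figure D4:**
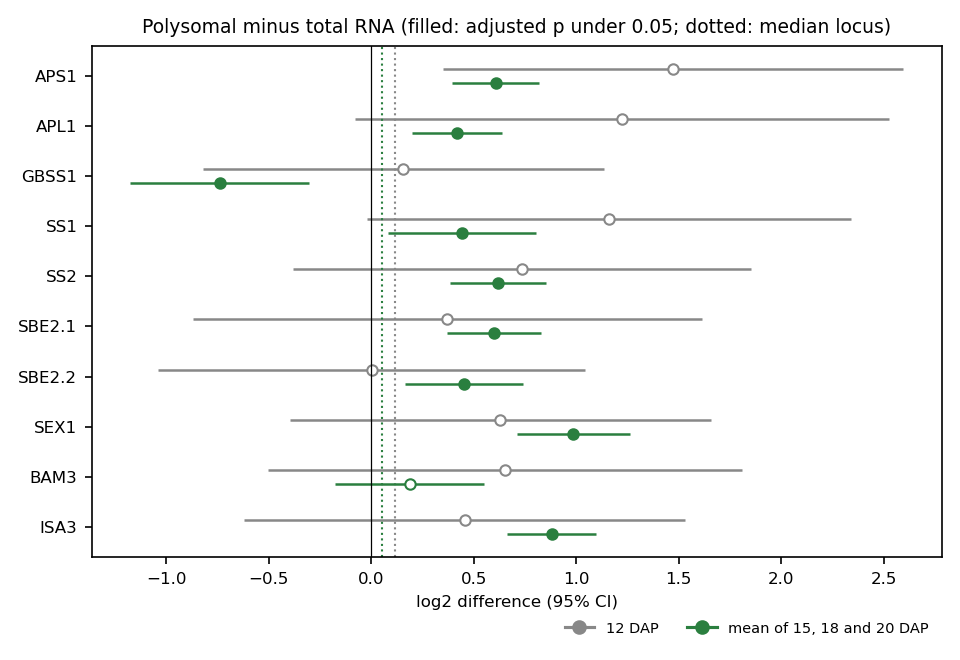
Log2 difference of polysomal minus total RNA with its 95% confidence interval for each enzyme, at 12 DAP (grey) and as the mean of 15, 18 and 20 DAP (green). Filled points passed the adjusted threshold of 0.05 and dotted lines mark the median locus; GBSS1 is the one green point left of 0, and no grey point is filled.

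At 12 DAP no member differed between the fractions at an adjusted p under 0.05 in limma's test, where 5.65% of loci did, and 1 of 10 had an unadjusted p under 0.05. That was APS1, with 8.15, 9.26 and 8.64 on polysomes against 7.83, 7.46 and 6.33 in total RNA and a difference of 1.47 ± 0.53 (adjusted p = 0.119). The 10 differences ran from 0.0015 to 1.47, and the intervals were wide, -0.080 to 2.53 for APL1 as an example. All 24 arrays in one model called APS1, APL1 and SS1 (adjusted p = 0.00103, 0.0261 and 0.0290), a model whose single spread per locus is shared with the tighter later arrays. Whether the polysomal to total ratio itself changed was tested as the interaction of fraction and stage, and no member was called from 12 to 15 DAP, where 2.9% of loci were, or from 15 to 20 DAP, where 0.0791% were. GBSS1 came closest from 12 to 15 DAP, at -1.15 ± 0.42 (unadjusted p = 0.0145, adjusted p = 0.149), as the only 1 of 10 with an unadjusted p under 0.05, and APS1 was at -1.07 ± 0.56 (adjusted p = 0.312). From 15 to 20 DAP 0 of 10 had an unadjusted p under 0.05, and the differences ran from -0.61 to 0.52. The fall of APS1 in polysomal and not in total RNA from 12 to 15 DAP, and that of SEX1 from 15 to 20 DAP, are therefore not shown to differ between fractions.

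The profiles of the members over the 8 group means were compared as a description, by Pearson correlation; the means share arrays, normalization and the gap between 12 DAP and later arrays. SBE2.2 was most like BAM3 (r = 0.974), APL1 most like SS1 (r = 0.954), SS2 most like ISA3 (r = 0.907) and APS1 most like SEX1 (r = 0.900). GBSS1 was closest to BAM3 (r = 0.820) and SBE2.1 to ISA3 (r = 0.585). The pairs of the same activity were unlike, at r = -0.422 for SBE2.1 with SBE2.2 and 0.0852 for SS1 with SS2. The 7 pairs with the highest r were of both kinds. SBE2.2, APL1 and SS1 each with BAM3 (r = 0.974, 0.948 and 0.931), SS2 with ISA3 and APS1 with SEX1 joined an enzyme of synthesis with one of breakdown. APL1 with SS1 and with SBE2.2 (r = 0.920) joined 2 enzymes of synthesis. Other loci were searched only among the 10556 of 27827 with a symbol, leaving out those with values identical to another locus. The profiles closest to GBSS1 were those of NIP4;1 (r = 0.996), WRKY41 (r = 0.996) and CRK4 (r = 0.995), and 552 of the searched loci were above 0.95. SEX1 had 16 such loci, led by KAI2 (r = 0.979), AGP11 (r = 0.978) and BSK2 (r = 0.976).

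A further 43 genes of starch metabolism or of its enzyme families changed in both directions between 12 and 15 DAP. Among them are other synthases, amylases or amylase-like proteins, phosphatases and plastid transporters. In total RNA 14 rose and 11 fell, and in polysomal RNA 15 rose and 11 fell. The shares of all loci that rose and fell were 20.5% and 19.4% in total and 29.4% and 39.4% in polysomal RNA. The median difference of the 43 was 0.0874 and 0.21 in the 2 fractions, beside -0.318 and -0.514 over all loci. Those that rose in both fractions were 12: the synthases SS3 and SS4, the dikinase PWD (AT5G26570), the beta-amylases or beta-amylase-like BAM1, BAM4, BAM8 and BAM9, the alpha-amylase AMY2, the debranching enzyme LDA, the plastid ATP carrier NTT2, and the loci AT1G42430 and AT5G03420. The 9 that fell in both were the large subunits APL3 and APL4, the glucose-phosphate isomerase PGI1, the phosphorylases PHS1 and PHS2, the glucan phosphatase SEX4, the alpha-amylase AMY1, and the beta-amylases BAM5 and BAM6. BAM5, a beta-amylase outside the plastid, read 9.998, 9.77 and 9.47 at 12 DAP and 3.94, 4.47 and 4.48 at 15 DAP in total RNA, and fell the most of the 43, with -5.45 ± 0.33 in total and -6.55 ± 0.31 in polysomal RNA (adjusted p = 1.68e-05 and 5.81e-06). AMY2 rose most in total RNA, from 3.68, 3.5 and 3.49 to 6.87, 7.01 and 6.79, a rise of 3.33 ± 0.30 (adjusted p = 6.11e-05), and of 2.01 under cyclic loess (adjusted p = 0.00164). BAM9 rose most on polysomes, by 3.23 ± 0.51 (adjusted p = 6.25e-04), but was not called under quantile normalization or, at 1.2, under cyclic loess (adjusted p = 0.0766 and 0.104). The scaling moved the split of calls: 4 rose and 9 fell in total RNA under cyclic loess, and in polysomal RNA 5 rose and 7 fell under quantile normalization, 3 and 9 under cyclic loess, and 20 and 5 under median centring. Median centring gave 14 and 7 in total RNA.

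**Figure D5:**
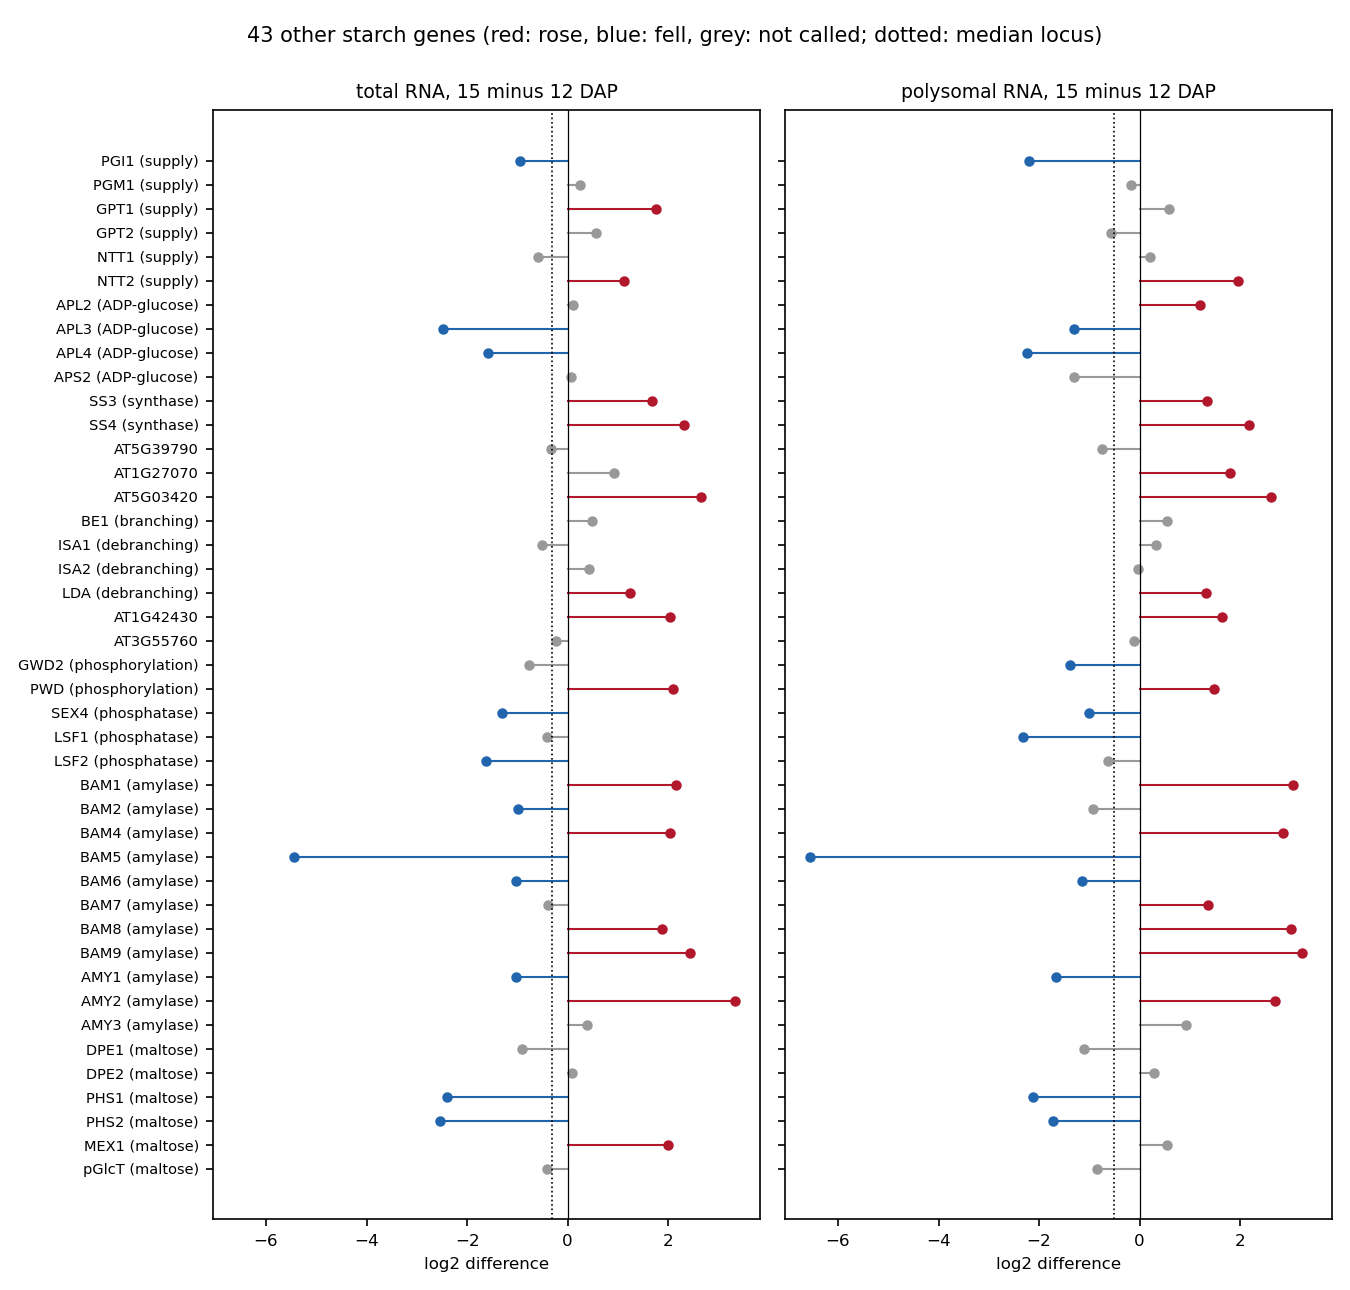
Log2 difference, 15 minus 12 DAP, of 43 other starch genes in total (left) and polysomal RNA (right), grouped by activity, with loci that have no symbol shown by their identifier. Red points rose and blue points fell at an adjusted p under 0.05, grey points were not called, the dotted line is the median locus, and BAM5 lies farthest left in both panels.

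From 15 to 20 DAP 8 of the 43 rose and 2 fell in total RNA, and 6 rose and 4 fell in polysomal RNA. Of all loci, 11.5% and 7.7% rose and fell in total and 7.18% and 5.4% in polysomal RNA. All 24 arrays in one model called 4 in total and 1 in polysomal RNA, and the polysomal count was 5 without polysomal 15 DAP replicate 3 or polysomal 20 DAP replicate 2. BAM4, DPE1, PHS2 and pGlcT rose in both fractions. GPT2, a plastid glucose-phosphate carrier, was the one that fell in both: it read 7.64, 7.43 and 7.52 at 15 DAP and 5.73, 5.05 and 5.06 at 20 DAP in total RNA. All its 15 DAP arrays were above all of 20 DAP, and the falls were -2.25 ± 0.19 in total RNA and -2.05 ± 0.19 on polysomes (adjusted p = 1.63e-06 and 3.93e-06). The largest rises were BAM4 in total RNA, at 1.12 ± 0.21 (adjusted p = 0.00186), and the locus AT5G39790 in polysomal RNA, at 0.98 ± 0.21 (adjusted p = 0.00495), of which the latter was not called with all 24 arrays in one model (adjusted p = 0.0926). Polysomal RNA was higher than total RNA over the later stages for 24 of the 43 and lower for 4, where 29.7% and 23% of loci were, and the median difference was 0.39 beside 0.0506 over all loci. The beta-amylase-like BAM7 was highest at 1.08 ± 0.14 and AMY1 lowest at -1.05 ± 0.13 (adjusted p = 2.27e-05 and 1.03e-05). At 12 DAP PGI1 was the only 1 of the 43 called between the fractions, where 5.65% of loci were, at 2.08 ± 0.47 (adjusted p = 0.0135), and it lost the call without polysomal 12 DAP replicate 1, at 2.01, or total 12 DAP replicate 3, at 1.95 (adjusted p = 0.0502 and 0.0611). All 24 arrays in one model called 12 of the 43 at 12 DAP, array weights 3, and quantile normalization and cyclic loess 2 each. None of the 43 was called for a change of the ratio at either step, where 2.9% and 0.0791% of loci were, with 8 from 12 to 15 DAP and 5 from 15 to 20 DAP at an unadjusted p under 0.05. At the earlier step all 24 arrays in one model called 5, quantile normalization 2, and median centring, the 20870 brighter loci and the fits without polysomal 12 DAP replicate 1 or 2 or total 12 DAP replicate 1 called 1 each.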

How the data were processed

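The deposited values are log2 levels, 1 per locus and array, which the authors made with RMA, per the submitters' processing notes, without a version; RMA subtracts background, normalizes arrays to one another and summarizes probes. The array design, which arrays were normalized together and a genome build are not given in the sources used here, so no coordinates are printed. Arrays give no count depth, and 3 per group limit the precision. All columns of the table were used.

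All 27827 loci were tested with limma 3.58.1 (lmFit and eBayes) in R 4.3.3, without a filter, and p values were adjusted over them by the Benjamini-Hochberg method (threshold 0.05). Comparisons with 12 DAP were fitted to the compared groups alone (the change of the ratio to 12 arrays), since those arrays spread more, and later ones to the 18 arrays of 15 to 20 DAP. Replicates are bulks of plants, and p values measure the spread between them. Symbols came from a RefSeq table of TAIR10.1, which held all 10 members and all 43 other genes; 5 of the 43 have no symbol there and are given by locus. The steps were also run on simulated data with the same base levels in all groups, independent noise and few changed loci. Those data lack the narrower range of levels at 12 DAP and the many changed loci seen here. They therefore do not show how reliable the calls are under these conditions.

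All members are named; of the 43 other starch genes, the largest called rise and fall in each comparison were named by rule, and those called in both fractions were named after their values were seen. For GBSS1 and SEX1 the 3 loci with a symbol and the highest correlation are named. The members, gene lists and comparisons were chosen with earlier results of these data known. Alternatives were all 24 arrays in one model, array weights per stage class, quantile normalization, median centring and cyclic loess of the deposited values, keeping only the 20870 loci with the higher means, the replicate block and leaving out each array; those for the 43 other genes and the pairs of isoforms were chosen after seeing the data.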

Additional observations from a re-analysis of the deposited data

How the results depend on the processing

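Of the 28 called differences of members, all kept their direction under the 7 other settings and with each array left out in turn. Only quantile normalization, median centring, cyclic loess or leaving out an array of the compared groups could move a difference. The other fits alter only its SE and p value, so the direction there was fixed in advance. Short of the threshold fell 30 of 196 values under other settings and 45 of 348 with an array left out. All reversals were of uncalled differences. Why settings differ was not tested. The 12 DAP arrays, with their wider replicate spread and narrower range of levels, limit every comparison with 12 DAP, and 3 arrays per group limit all.

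Loci called went from 11111 to 6865 under quantile normalization and 4657 under cyclic loess for total RNA at 15 against 12 DAP, and from 19157 to 5543 and 5487 for polysomal RNA. The share of calls that were higher went from 51.3% to 66.6% (median centring) and 39.5% (cyclic loess) in total, and from 42.8% to 64.0% and 43.7% in polysomal RNA. For polysomal against total RNA at 12 DAP, 1573 became 843 under quantile normalization; for the change of the ratio from 12 to 15 DAP, 806 became 472 and, under cyclic loess, 355. From 15 to 20 DAP the ratio gave 22 calls, 62 with array weights, 8 with median centring, 12 with cyclic loess and 40 with the 20870 brighter loci. One model of all 24 arrays gave 1407 instead of 5335 (total RNA, 20 against 15 DAP), 938 instead of 3503 (polysomal), 8750 (polysomal against total at 12 DAP), 9623 instead of 14666 (later stages), 3645 and 0 (the ratio at both steps); members called were 1 and 0 in the 20 against 15 DAP comparisons, from 3 each, and 3 at 12 DAP, from 0. With an array left out, loci called ran from 2140 to 3938 for polysomal RNA at 20 against 15 DAP, 907 to 1280 between fractions at 12 DAP, and 241 to 1209 and 1 to 30 for the ratio, and members called from 1 to 4 for polysomal RNA at 20 against 15 DAP, with 1 without replicate 2 or 3 of polysomal 15 DAP or any 1 replicate of polysomal 20 DAP.

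Uncalled differences that changed sign were, at 15 against 12 DAP in total RNA, APS1 with median centring (0.20) and SS2 and ISA3 with cyclic loess (-0.48 and -0.51), and in polysomal RNA SBE2.1 (-0.31 and -0.51) and ISA3 (-0.23 and -0.57) with quantile normalization and cyclic loess, and SS2 with median centring (0.39). With quantile normalization, median centring and cyclic loess in that order, they were APL1 in total RNA at 20 against 15 DAP (0.023, 0.031 and 0.076), SS1 in polysomal RNA (-0.076, -0.042 and -0.13) and BAM3 in the ratio (-0.033, -0.054 and -0.074). For the ratio from 12 to 15 DAP they were SEX1 (-0.30) and ISA3 (-0.58) with quantile normalization, ISA3 (-0.062) and SBE2.2 (-0.017) with cyclic loess, and SBE2.1 (0.24) with median centring. With an array left out, ranges that spanned 0 were APS1 -0.52 to 0.23 and SS2 -0.26 to 0.49 in total RNA at 15 against 12 DAP, SS2 -0.43 to 0.013 in polysomal RNA at 15 against 12 DAP, SBE2.2 -0.10 to 0.27, APL1 -0.14 to 0.014 and BAM3 -0.035 to 0.62 in total RNA at 20 against 15 DAP, SS1 -0.18 to 0.23 in polysomal RNA at 20 against 15 DAP, SBE2.2 -0.30 to 0.22 and SBE2.1 -0.064 to 1.0 between fractions at 12 DAP, APL1 -1.34 to 0.076, SBE2.1 -0.64 to 0.43, SBE2.2 -0.13 to 0.41 and SS2 -0.63 to 0.12 for the ratio from 12 to 15 DAP, BAM3 -0.15 to 0.50 for the ratio from 15 to 20 DAP.

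With the replicate number as a block, members called were 6 and 7 at 15 against 12 DAP, 2 and 3 at 20 against 15 DAP (total, then polysomal RNA), 8 between fractions later and 0 in the other 3 comparisons; SBE2.1 in total RNA at 20 against 15 DAP (adjusted p = 0.0652) and SS1 between fractions (adjusted p = 0.0535) lost their calls. Same-numbered total and polysomal arrays of a stage deviated together at r = -0.0212 to 0.0213 over 12 pairs, so the numbers were not taken to pair the fractions. Over all 84 same-numbered pairs of arrays from different groups, r ran from -0.0594 to 0.244. Of these, 7 were above 0.1, all between stages within a fraction. A weak pairing of stages by number is thus not excluded, and the main fits did not use it.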
